A study of Homo sapiens with 3 samples.

Results

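The nuclear genes described here encode the subunits of respiratory complexes III, IV and V, cytochrome c, and proteins that assemble cytochrome c oxidase. The 48 genes were chosen by name: RefSeq transcripts in the deposited tables were given current gene symbols, FPKM was summed over the transcripts of each symbol, and all 48 were found among 26113 named genes. Of them, 43 had a mean of at least 1 FPKM over the 3 libraries and an acceptable quantification status in each, and were tested among 3869 genes. FPKM is the number of fragments per length of transcript and per total of mapped fragments. Levels of different genes are thus scaled for length, although a trend of measured values with length can remain. The libraries were made from MTAC-P, a human lung cancer line derived from PC9 and resistant to EGFR tyrosine kinase inhibitors, grown in DMEM with serum. By their labels, the 2 libraries shBCAT1 1 and shBCAT1 2 carry short hairpins against BCAT1, the cytosolic branched-chain aminotransferase, and the 1 control library carries a hairpin against luciferase. Whether the libraries labelled shBCAT1 hold 1 hairpin or different ones, and whether cultures were separate, is not in the labels, so p-values cover no more than library-to-library spread, possibly a technical one. The series' design text speaks of triplicates.

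Complex III takes electrons from ubiquinol and hands them to cytochrome c, and complex IV, cytochrome c oxidase, passes them on to oxygen. Both pump protons across the inner mitochondrial membrane, and complex V, the ATP synthase, lets protons flow back through a rotating ring to drive ATP synthesis. Mitochondrial DNA encodes the catalytic cores of the oxidase and cytochrome b, while the genes described here are nuclear and their proteins are imported. The oxidase also needs assembly factors that deliver copper and heme to its core. Of 6 mitochondrially encoded subunit genes looked for, 0 were found among the named genes, so they were not analysed here.

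The library labelled shBCAT1 1 had 1.05 FPKM of BCAT1 (bounds 0.835 to 1.27) and that labelled shBCAT1 2 had 0.241 FPKM (0.158 to 0.325), against 0.213 FPKM in the control (0.129 to 0.297). Neither library labelled shBCAT1 thus had a lower BCAT1 value, and shBCAT1 1 had a higher one with bounds apart from the control's. Exchanged labels and a knockdown that these values do not show cannot be told apart. Exchanged labels would change what each difference below means, so every difference is between libraries as labelled. Errors and p-values take their spread from the 2 libraries labelled shBCAT1, so exchanged labels would change their meaning too. Markers fit an epithelial line: 9 lung epithelial markers summed to 788 FPKM in shBCAT1 1 and 1094 FPKM in shBCAT1 2 as labelled, against 939 FPKM in the control, led by keratin genes, although NKX2-1 and SFTPB were near 0. Summed levels of 5 fibroblast and 3 endothelial markers stayed between 0.105 and 0.259 FPKM in each library. Of 4 leukocyte markers, CD68 alone reached 1 FPKM. For the 43 tested genes, the width of the deposited bounds corresponded to a median of 79.0 and 77.6 fragments per gene in the libraries labelled shBCAT1 1 and shBCAT1 2, against 109 in the control. A counting error of 11.3%, 11.4% and 9.58% of the value follows at these medians, and it covers no spread between libraries.

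Of the 43 tested genes, 40 had lower values in both libraries labelled shBCAT1 than in the control, none was higher in both, and UQCRC2, CYC1 and ATP5PO lay on different sides in the 2 libraries. Among all 3869 genes tested, 43.7% were lower in both and 25.6% higher in both. The median log2(FPKM + 1) difference, shBCAT1 minus control, was -0.37 over the 43 genes, beside -0.06 over all genes tested. By library it was -0.40 for shBCAT1 1 and -0.41 for shBCAT1 2 as labelled, beside -0.12 and 0.01 over all genes. All 48 genes summed to 545 FPKM in shBCAT1 1 and 519 FPKM in shBCAT1 2 as labelled, against 766 FPKM in the control. The sum over all entries was lower as well, at 44312.5 and 46145.4 FPKM, against 53897.6 FPKM in the control. The 48 genes held 1.23% and 1.12% of these sums, against 1.42% in the control. In bulk RNA, fewer cells with these transcripts and less of them per cell cannot be told apart.

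No single gene of the 43 passed the test. limma's fit on log2(FPKM + 1) called 0 of them at an adjusted p of 0.05, beside 0.362% of all genes called lower and 0.0% called higher, and their adjusted p ran from 0.796 to 0.946. Unadjusted p-values from limma fell under 0.05 for 12 of the 43 genes on the lower side and 0 on the higher side, beside 5.01% and 0.569% of all genes. On the lower side, scaling by median of ratios gave 7 genes, beside 2.77% of all genes, and quantile normalization gave 6, beside 2.07%. The control has 1 library, so the fit takes its spread from the 2 libraries labelled shBCAT1 and assumes that the control varies like them. An exact permutation of the 3 labels cannot go below a one-sided p of 0.333. Bounds of single libraries lay below the control's for 16 genes in shBCAT1 1 and 17 in shBCAT1 2 as labelled, beside 7.6% and 7.65% of all genes, and above them for 0 genes in each, beside 1.6% and 7.31%. For 10 of the 43 genes the bounds of both libraries labelled shBCAT1 lay wholly below those of the control, beside 4.19% of all genes (1.21% had both above), namely UQCRFS1, UQCRB, COX5B, COX6A1, COX7A2L, COX7C, COX8A, COX16, COX17 and ATP5F1E. With median-of-ratios scaling this count was 5, and with bounds 1.5 times as wide it was 2. Between the libraries labelled shBCAT1 themselves, bounds lay apart for 4 of the 43 genes (CYC1, CYCS, ATP5MC2 and ATP5MC3), beside 9.56% of all genes.

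**Figure D1:**
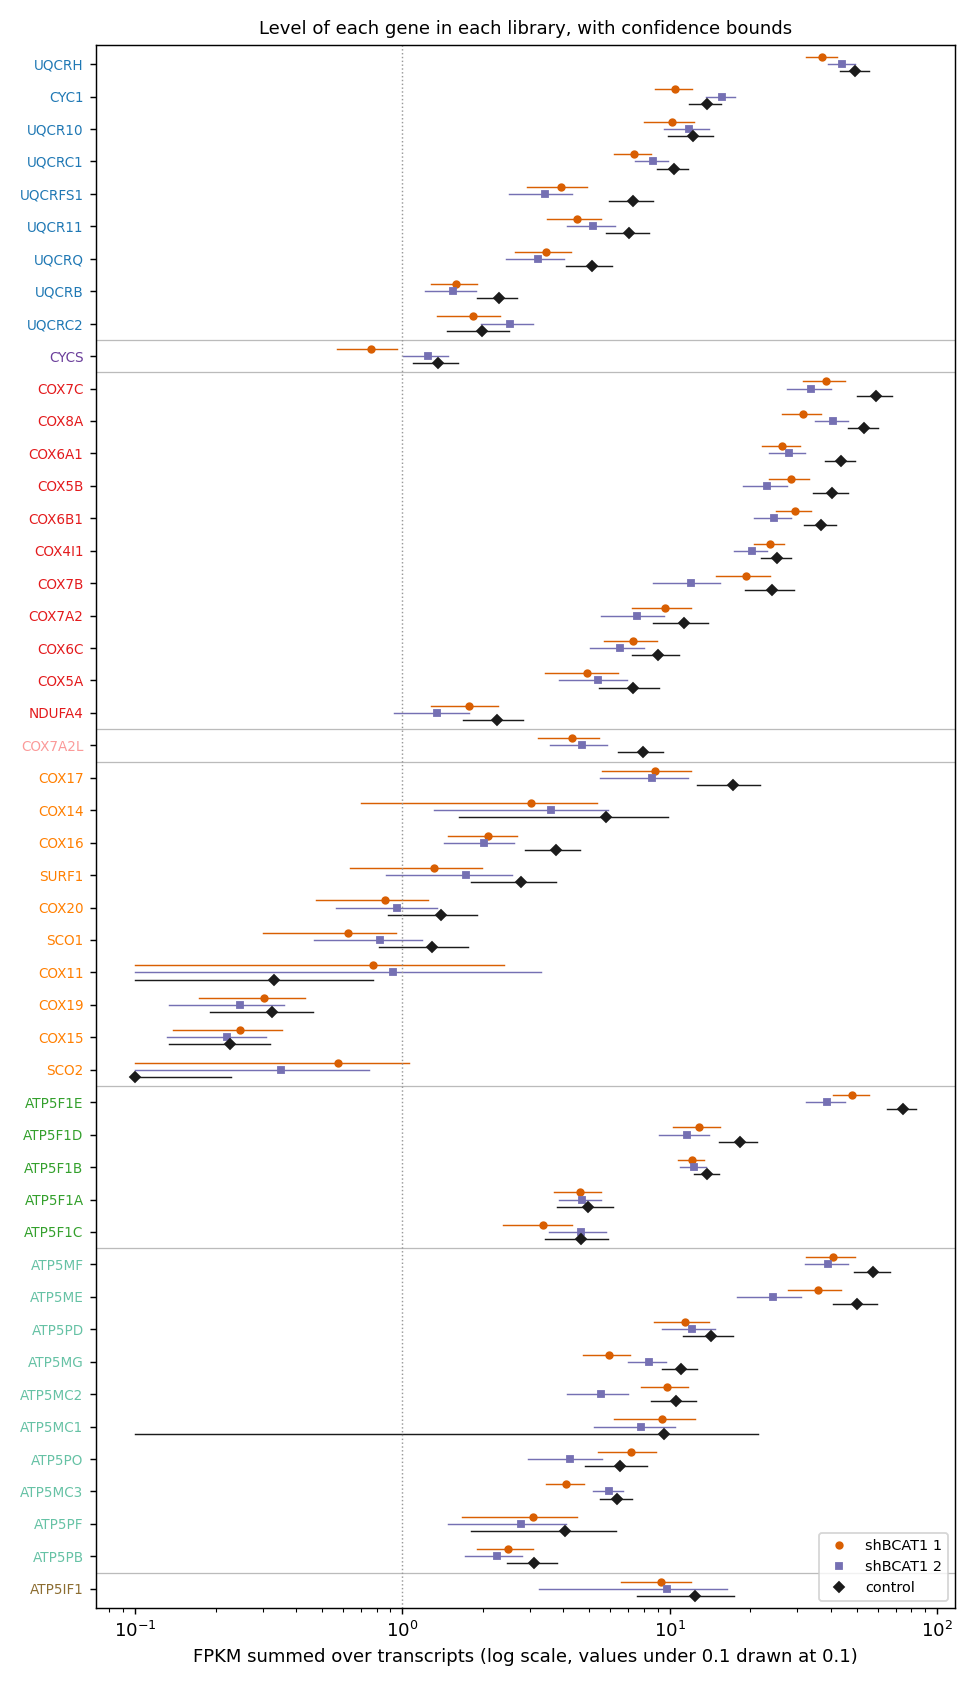
FPKM of the 48 genes on a log axis in the libraries labelled shBCAT1 1 and shBCAT1 2 and in the control, with lines for the deposited confidence bounds and names coloured by role from complex III at the top to the ATP synthase inhibitor at the bottom. The dotted line marks 1 FPKM. The control lies to the right of both other libraries for 40 of the 43 tested genes, from COX17 at 17.2 FPKM in the control to ATP5F1C at 4.66 FPKM, where shBCAT1 2 nearly meets it.

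Among the 9 complex III genes, 7 were lower in both libraries labelled shBCAT1 and the median difference was -0.34. UQCRFS1 (chromosome 19, 29207260 to 29213229, hg38), the Rieske iron-sulfur subunit that takes the first electron from ubiquinol, was at 3.92 and 3.41 FPKM in the libraries labelled shBCAT1 1 and shBCAT1 2, against 7.29 FPKM in the control. Both libraries were well below the control, with a mean 0.502 times the control's value and a log2(FPKM + 1) difference of -0.83 ± 0.20 (SE; adjusted p = 0.796 by limma). UQCRB, a small subunit that helps to bind ubiquinone, was at 1.59 and 1.54 FPKM, against 2.30 FPKM in the control. In both libraries UQCRB was thus lower than in the control. UQCRQ, a small membrane subunit, was at 3.45 and 3.22 FPKM, against 5.10 FPKM in the control. UQCR11, another small membrane subunit, was at 4.50 and 5.17 FPKM, against 7.05 FPKM in the control. Both values of these 3 genes lay below the control's, as for 43.7% of all genes tested, and their differences were -0.36, -0.49 and -0.47. The bounds met the control's for UQCRQ in shBCAT1 1 and for UQCR11 in shBCAT1 2 as labelled.

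The core proteins of the same complex stood apart from each other. UQCRC1, the larger core protein, was at 7.34 and 8.63 FPKM in the libraries labelled shBCAT1 1 and shBCAT1 2, against 10.3 FPKM in the control, a difference of -0.34 ± 0.21 (SE) with bounds apart in shBCAT1 1. UQCRC2, the other core protein, was at 1.83 and 2.52 FPKM, against 1.99 FPKM in the control, a difference of 0.08 ± 0.23 (SE), the only fitted value above 0 among the 43 genes. CYC1, the heme-bearing cytochrome c1 subunit, was at 10.4 and 15.6 FPKM, against 13.7 FPKM in the control, so the libraries labelled shBCAT1 stood on either side of it. UQCRH, the hinge subunit that docks cytochrome c, was at 37.2 and 44.2 FPKM, against 49.5 FPKM in the control. UQCR10, a small subunit near cytochrome c1, was at 10.2 and 11.8 FPKM, against 12.2 FPKM. Both were lower in each library labelled shBCAT1, with differences of -0.28 ± 0.20 and -0.15 ± 0.21 (SE), and for UQCRH the bounds in shBCAT1 1 lay below the control's. UQCRHL, an intronless copy of UQCRH, did not exceed 0.288 FPKM in any library. CYCS, which encodes cytochrome c itself, was at 0.762 and 1.25 FPKM, against 1.36 FPKM in the control, and only the library labelled shBCAT1 1 had bounds apart from it.

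All 11 nuclear oxidase subunits were lower in both libraries labelled shBCAT1, with differences from -0.19 to -0.70 and a median of -0.44. COX7C (chromosome 5, 86617967 to 86620766), a small membrane subunit, was at 38.4 and 33.7 FPKM in the libraries labelled shBCAT1 1 and shBCAT1 2, against 59.1 FPKM in the control, a difference of -0.70 ± 0.19 (SE; limma adjusted p 0.796). COX6A1, the broadly expressed isoform of subunit VIa, was at 26.4 and 27.9 FPKM, against 43.5 FPKM in the control, with a difference of -0.66 ± 0.18. COX5B, a zinc-binding subunit on the matrix side, was at 28.4 and 23.2 FPKM, against 40.4 FPKM in the control, with a difference of -0.64 ± 0.21. In these 3 genes the bounds of both libraries lay below those of the control, and the spread between the libraries labelled shBCAT1 was smaller than their distance from it.

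COX8A, a small membrane subunit, was at 31.6 and 40.7 FPKM, against 53.3 FPKM in the control, again with bounds apart in both. COX7B had the largest SE of the log2(FPKM + 1) difference among the oxidase subunits (0.33), at 19.3 and 12.0 FPKM, against 24.1 FPKM in the control, and only the library labelled shBCAT1 2 had bounds below it. COX6B1, which joins the 2 monomers of the oxidase dimer, was at 29.3 and 24.6 FPKM, against 36.9 FPKM. Both of these genes were lower in each library labelled shBCAT1. COX5A, a matrix-side subunit, was at 4.90 and 5.39 FPKM, against 7.28 FPKM in the control. COX6C, a membrane subunit, was at 7.30 and 6.54 FPKM, against 9.03 FPKM. COX7A2, the broadly expressed isoform of subunit VIIa, was at 9.61 and 7.54 FPKM, against 11.3 FPKM. With COX6B1 included, the differences of these 4 genes ran from -0.34 to -0.44. COX4I1, the subunit at which ATP inhibits the enzyme, differed least, at 23.7 and 20.2 FPKM, against 25.1 FPKM in the control (-0.19 ± 0.20, SE). NDUFA4, once assigned to complex I and now counted as an oxidase subunit, was at 1.77 and 1.35 FPKM, against 2.26 FPKM. COX7A2L, which helps complexes III and IV to join into supercomplexes, was at 4.32 and 4.69 FPKM, against 7.95 FPKM in the control, a difference of -0.70 ± 0.19 with bounds apart in both libraries.

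The oxidase assembly genes had the lowest median difference of the roles with more than 1 tested gene. Of 10 such genes 5 were tested. All 5 were lower in both libraries labelled shBCAT1, beside 43.7% of all genes tested, with a median of -0.64. COX17 (chromosome 3, 119669525 to 119677396), the chaperone that brings copper to the oxidase, was at 8.77 and 8.57 FPKM in the libraries labelled shBCAT1 1 and shBCAT1 2, against 17.2 FPKM in the control. Its difference of -0.91 ± 0.19 (SE; limma adjusted p 0.796) was the lowest of the 43 genes, and the 2 libraries nearly coincided. COX16, which acts with the copper-carrying proteins on subunit 2, was at 2.09 and 2.02 FPKM, against 3.76 FPKM in the control (-0.64 ± 0.19). COX14, an assembly factor of subunit 1, was at 3.02 and 3.59 FPKM, against 5.76 FPKM, with wide bounds that overlapped in each library. SURF1, mutated in Leigh syndrome and needed for early oxidase assembly, was at 1.31 and 1.72 FPKM, against 2.78 FPKM (-0.59 ± 0.21). COX20, a chaperone of subunit 2, was at 0.860 and 0.957 FPKM, against 1.39 FPKM. Both again had overlapping bounds.

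The 5 assembly genes that were not tested had low levels or an uncertain status. SCO1, a copper-binding protein that receives copper from COX17, was at 0.624 and 0.826 FPKM in the libraries labelled shBCAT1 1 and shBCAT1 2, against 1.29 FPKM in the control. COX19, another twin-cysteine protein of copper delivery, was at 0.303 and 0.247 FPKM, against 0.326 FPKM. COX15, which makes heme A, was at 0.246 and 0.220 FPKM, against 0.227 FPKM. The bounds of these 3 genes overlapped in all libraries. COX11, which inserts copper into subunit 1, had a status other than OK and values of 0.775 and 0.922 FPKM, against 0.331 FPKM. SCO2, a relative of SCO1, was at 0.573 and 0.353 FPKM and near 0 in the control, whose upper bound was 0.229 FPKM. Both had bounds that overlapped the control's.

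Of the ATP synthase, all 5 F1 genes were lower in both libraries labelled shBCAT1, beside 43.7% of all genes tested. Their median difference was -0.19. ATP5F1A, the alpha subunit of the hexamer that makes ATP, was at 4.61 and 4.69 FPKM in the libraries labelled shBCAT1 1 and shBCAT1 2, against 4.96 FPKM in the control. ATP5F1B, its catalytic beta subunit, was at 12.1 and 12.3 FPKM, against 13.8 FPKM. Their differences of -0.08 ± 0.19 and -0.16 ± 0.19 (SE) were smaller than their errors. ATP5F1C, the rotating gamma shaft, was at 3.35 and 4.66 FPKM, against 4.66 FPKM. ATP5F1D and ATP5F1E, the delta and epsilon subunits at the foot of that shaft, had larger differences. Their transcript lengths were 911 and 439 bases, and with a trend on length removed, as described below, the differences were -0.29 and -0.30. ATP5F1D was at 12.9 and 11.6 FPKM, against 18.3 FPKM in the control (-0.54 ± 0.20). ATP5F1E (chromosome 20, 59028678 to 59032367), with the highest control level of the 48 genes, was at 48.2 and 38.8 FPKM, against 74.3 FPKM (-0.77 ± 0.21, limma adjusted p 0.796), with bounds apart in both libraries.

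Of the 10 stalk and membrane genes of the synthase, 9 were lower in both libraries labelled shBCAT1, beside 43.7% of all genes tested. The median difference of the 10 was -0.33. Of them, 0 had bounds below the control's in both libraries, beside 4.19% of all genes. ATP5ME, the small e subunit of the membrane part, was at 35.7 and 24.4 FPKM in the libraries labelled shBCAT1 1 and shBCAT1 2, against 50.3 FPKM in the control. ATP5MF, the f subunit, was at 40.8 and 39.2 FPKM, against 57.8 FPKM. ATP5MG, the g subunit that acts in dimer formation, was at 5.91 and 8.35 FPKM, against 11.0 FPKM. The differences of these 3 genes were -0.75 ± 0.29, -0.52 ± 0.17 and -0.58 ± 0.27 (SE). The peripheral stalk keeps F1 from turning with the ring, and its genes had differences from -0.20 to -0.36. Its b subunit ATP5PB was at 2.48 and 2.25 FPKM, against 3.12 FPKM. The d subunit ATP5PD was at 11.4 and 12.1 FPKM, against 14.3 FPKM. Coupling factor 6, ATP5PF, was at 3.08 and 2.78 FPKM, against 4.04 FPKM. These 3 were lower in both libraries labelled shBCAT1. ATP5PO, the stalk subunit that confers oligomycin sensitivity, was at 7.16 and 4.25 FPKM, against 6.50 FPKM in the control, on either side of it. ATP5IF1, which blocks the synthase from running backwards, was at 9.28 and 9.81 FPKM, against 12.4 FPKM, with overlapping bounds.

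The proton-carrying c ring is encoded by 3 genes, ATP5MC1, ATP5MC2 and ATP5MC3, which give the same mature protein. ATP5MC1 was at 9.32 and 7.84 FPKM in the libraries labelled shBCAT1 1 and shBCAT1 2, against 9.54 FPKM in the control, whose bounds ran from 0 to 21.4 FPKM. These bounds combine those of its 2 transcripts, 0 to 17.7 and 0 to 8.53 FPKM, taken as independent. ATP5MC2 was at 9.75 and 5.55 FPKM, against 10.5 FPKM. ATP5MC3 was at 4.10 and 5.91 FPKM, against 6.34 FPKM. The library farthest below the control was therefore shBCAT1 2 for ATP5MC2 and shBCAT1 1 for ATP5MC3. Summed over the 3 genes, levels reached 23.2 and 19.3 FPKM, against 26.4 FPKM in the control. ATP5MC2 held 42.1% of that sum in shBCAT1 1 and 28.8% in shBCAT1 2 as labelled, against 39.9% in the control, and ATP5MC3 held 17.7% and 30.6%, against 24.0%.

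**Figure D2:**
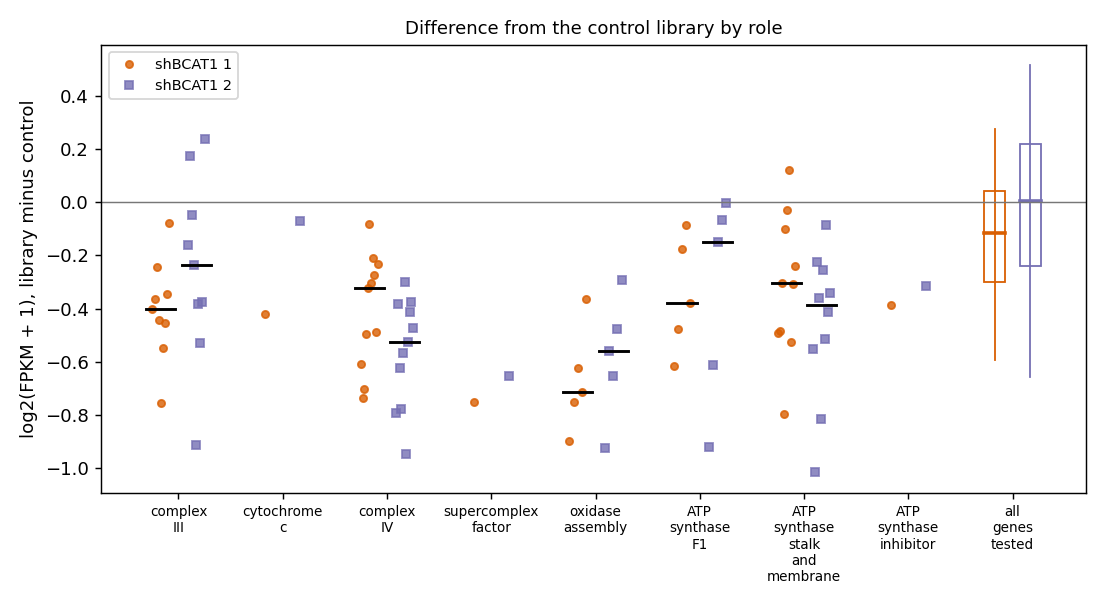
Difference in log2(FPKM + 1) of each library labelled shBCAT1 from the control for the 43 tested genes, grouped by role, with black lines at group medians. At the right, the boxes for all 3869 genes tested show the median and quartiles, and their lines run between percentiles 5 and 95. Medians of the oxidase assembly genes were -0.71 for shBCAT1 1 and -0.56 for shBCAT1 2, and those of complex III -0.40 and -0.24.

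Transcript length moved with these differences and touches every group above. The median length of the 43 genes was 840 bases, beside 1864 bases for all genes tested with a length. Across all genes tested, length and difference had a Spearman rho of 0.50 (n = 3785), and across the 43 genes of 0.47, with all values coming from the same 3 libraries. Genes with transcripts under 600 bases had a median difference of -0.46 over all 222 genes and -0.63 over the 13 described here. High levels moved with it as well: genes with a mean of 30 FPKM or more had a median difference of -0.39 over 208 genes and -0.64 over 9 of these.

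Genes were then split by length and level together. With transcripts under 1000 bases and a mean of at least 10 FPKM, 16 of 16 genes were lower in both libraries labelled shBCAT1, beside 87.7% of 235 other genes, with medians of -0.55 and -0.45. With transcripts of 1000 bases or more and a mean below 10 FPKM, 15 of 16 genes were lower in both, beside 34.9% of 2812 other genes, with medians of -0.35 and -0.01. UQCRFS1, COX16, COX7A2L, ATP5MG and UQCRB are among these 16. In the remaining classes, 8 of 9 short genes below 10 FPKM were lower in both, beside 64.8% of 443 other genes (medians -0.37 and -0.26), and 1 of 2 long genes at 10 FPKM or more, beside 58.3% of 252 (medians -0.13 and -0.15). With the length trend removed by loess in each library labelled shBCAT1, the median difference of the 43 genes was -0.21, beside -0.00 over all genes, 33 were below 0, beside 50.7% of all genes, and 24 were lower in both, beside 35.2%. At an unadjusted p under 0.05, 3 genes remained by limma, UQCRFS1 (-0.67 ± 0.21, SE), COX16 (-0.57 ± 0.20) and COX7A2L (-0.51 ± 0.19), 6.98% of the 43 genes beside 1.51% of all genes on the lower side in that fit, each with an adjusted p of 0.937. COX17 was then at -0.43 ± 0.19, COX7C at -0.21 ± 0.18 and ATP5F1E at -0.30 ± 0.19. The signs of UQCRH, UQCR10, CYC1, COX4I1, ATP5PD, ATP5PO, ATP5MC1, ATP5MF and ATP5IF1 turned to above 0. By role, 5 of 5 oxidase assembly genes, 10 of 11 oxidase subunits, 5 of 9 complex III genes and 11 of 16 ATP synthase genes stayed below 0, with medians of -0.37, -0.13, -0.02 and -0.10. The complex III median is the value of UQCRQ, whose length was taken as 429 bases. In shBCAT1 1 as labelled, UQCRQ had 70.2 fragments at 3.45 FPKM, beside 76.0 at 19.3 FPKM for COX7B with 445 bases. The length of UQCRQ may thus be taken too short. Its length class, its value with the trend removed and the complex III median are therefore uncertain. For ATP5MC2, the transcript that held the gene's value had no length. The 1122 bases used are those of another transcript near 0 FPKM. The length class of ATP5MC2 and its value with the trend removed are thus uncertain too. The part of transcript length and level in these differences was not tested beyond this.

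**Figure D3:**
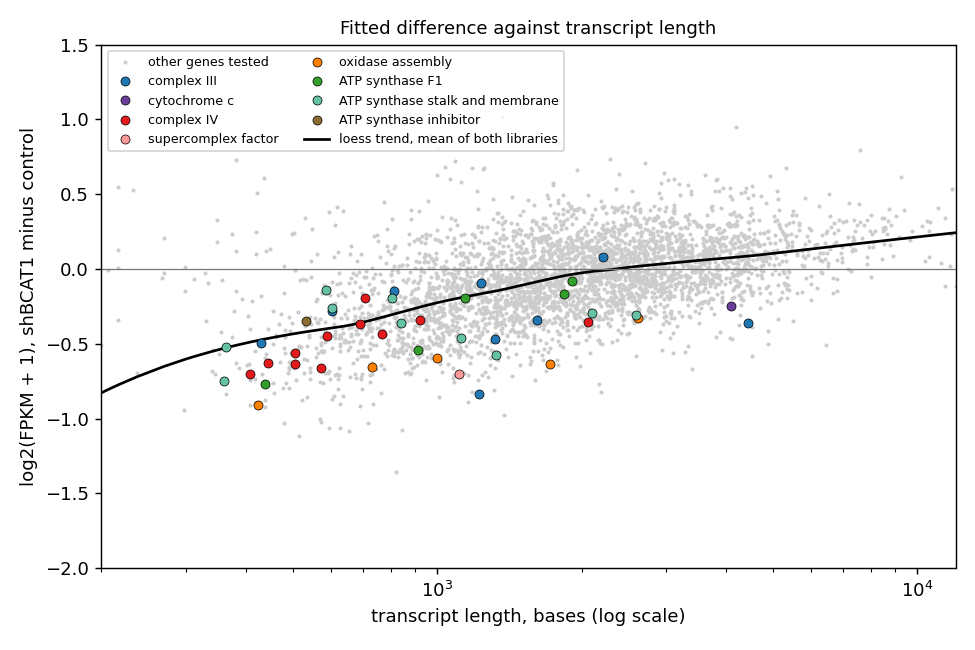
Fitted log2(FPKM + 1) difference, shBCAT1 minus control, against transcript length on a log axis for the genes tested, with the 43 genes coloured by role and the loess trend averaged over both libraries labelled shBCAT1. Of the other genes, 59 lie beyond the axes and are not drawn. The trend runs below 0 for short transcripts and above 0 for the longest ones, and UQCRFS1 at 1224 bases and COX16 at 1717 bases lie well under it.

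In several genes the values shifted between RefSeq transcripts, as the authors' quantification assigned them. ATP5MF, for example, has 4 transcripts, and its 305-base form was at 18.2 and 17.2 FPKM in the libraries labelled shBCAT1 1 and shBCAT1 2, against 34.1 FPKM in the control (bounds 27.8 to 40.4). Its 477-base form was at 17.1 and 16.4 FPKM, against 13.1 FPKM (8.80 to 17.5). The 477-base form thus held 42.0% and 41.8% of the gene's value, against 22.7% in the control, and the other 3 forms were all lower in both libraries labelled shBCAT1. For ATP5F1D the 996-base transcript was at 9.55 and 6.67 FPKM, against 14.2 FPKM in the control, while the 700-base one was at 3.32 and 4.94 FPKM, against 4.06 FPKM with overlapping bounds. For ATP5F1A a 1793-base transcript held 2.19 FPKM in the control (1.45 to 2.93) and was near 0 in both other libraries, with upper bounds of 0.0782 and 0.0738 FPKM, while the 1922-base one was at 4.15 and 4.69 FPKM, against 2.76 FPKM. Taking the most abundant transcript for the gene therefore turned the difference of ATP5F1A to 0.52, against -0.08 for the sum. In UQCR10 the 916-base transcript was at 7.23 and 7.27 FPKM, against 8.97 FPKM, and the 584-base one at 2.93 and 4.50 FPKM, against 3.24 FPKM.

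**Figure D4:**
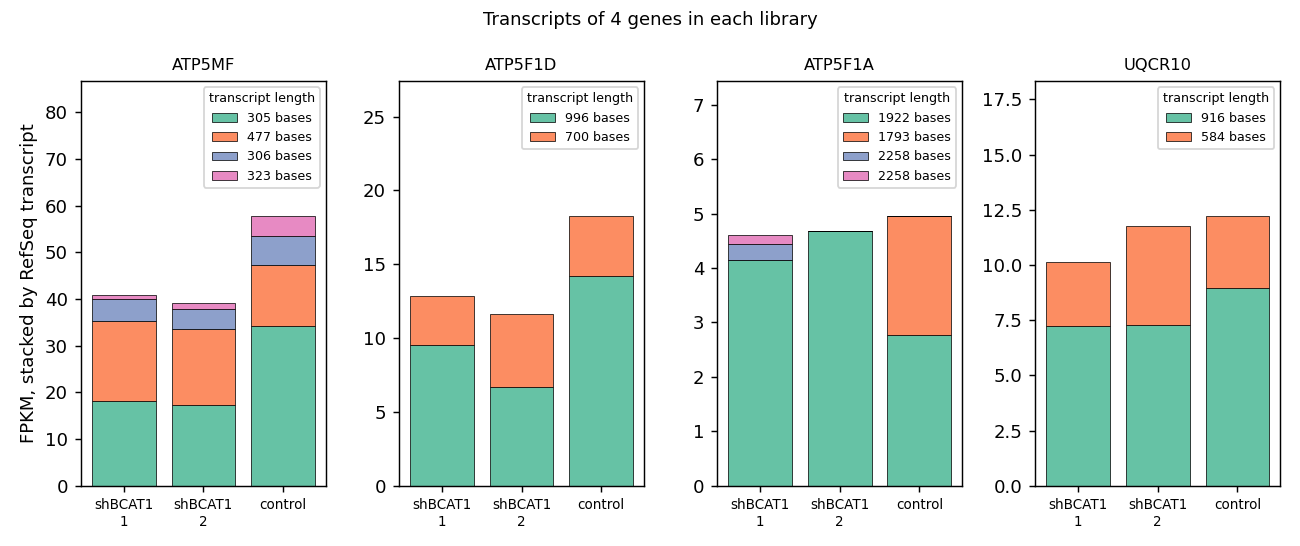
FPKM in the libraries labelled shBCAT1 1 and shBCAT1 2 and in the control for the transcripts of 4 genes, stacked by transcript and labelled by length, with transcripts under 0.1 FPKM in all libraries left out. The 305-base form of ATP5MF is lower in both libraries labelled shBCAT1, and ATP5F1A shows a 1793-base form in the control alone.

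Levels within a complex were far from equal, in the control as in the other libraries. The 2 core proteins of complex III are present in equal number in the enzyme. The FPKM ratio of UQCRC1 (1613 bases) to UQCRC2 (2211 bases) was 4.01 in shBCAT1 1 and 3.42 in shBCAT1 2 as labelled, against 5.21 in the control. These are ratios of RNA, which need not follow protein, and FPKM here also moved with length. ATP5F1B and ATP5F1A, also equal in the enzyme, had a ratio of 2.62 and 2.63, against 2.78 in the control. COX5B and COX5A had a ratio of 5.79 and 4.31, against 5.56 in the control. In the control the tested genes ran from CYCS at 1.36 FPKM to ATP5F1E at 74.3 FPKM, and the genes with short transcripts had the higher levels. Spearman rho between length and control FPKM was -0.76 (n = 43, values of 1 library), beside -0.41 over all genes tested with a length (n = 3785). Processed pseudogenes of their name are annotated for 29 of the 48 genes, with 40 for CYCS alone, so reads shared with such copies may be split either way and these levels are uncertain.

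Promoter sequences of 39 of the 48 genes were in the RefSeq table (GRCh38.p14, from 250 bases before to 50 after the gene's start). No entry was used for UQCRB, CYC1, COX6C, COX11, SCO2, ATP5F1B, ATP5F1D, ATP5MC3 and ATP5MF. They were searched on both strands for letters bound by factors known to control respiratory genes: the NRF1 core motif, CCGGAAG for ETS proteins such as GABPA, and AAGATGGCG for YY1. The NRF1 letters were found in 8 of 39 promoters (20.5%), beside 5.78% of all 35116 promoters and 13.5% of the promoters of 3080 tested genes. The ETS letters were found in 17 (43.6%), beside 10.3% and 24.1%, and the YY1 letters in 2 (5.13%), beside 1.75% and 5.23%. No matches overlapped in these 39 promoters. The median difference was -0.46 over the 20 tested genes with any of the 3 motifs and -0.40 over the 16 without. By motif it was -0.40 over 8 genes with and -0.44 over 28 without NRF1 letters, -0.49 over 15 with and -0.35 over 21 without ETS letters, and -0.35 over 2 with and -0.45 over 34 without YY1 letters. Shown here, to let the matches be seen in place, are 150 bases before the start of 6 genes, chosen after values were seen. For these windows the start is the RefSeq or the deposited one, whichever lies further upstream. In ATP5ME the deposited start lies 62 bases upstream. Among the genes with a match inside that window, 2 each are from complex III, the oxidase with its assembly factors, and the ATP synthase. In each of these groups they have the largest difference below the control common to both libraries, and matches are in capitals. They are UQCRQ (chr5:132866477-132866626, plus strand), UQCR11 (chr19:1605485-1605634, minus strand), COX17 (chr3:119677407-119677556, minus strand), COX5B (chr2:97645908-97646057, plus strand), ATP5ME (chr4:674339-674488, minus strand) and ATP5PD (chr17:75046980-75047129, minus strand).
UQCRQ: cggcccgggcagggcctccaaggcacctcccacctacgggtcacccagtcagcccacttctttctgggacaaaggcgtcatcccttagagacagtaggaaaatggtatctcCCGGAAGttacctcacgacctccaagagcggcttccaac
UQCR11: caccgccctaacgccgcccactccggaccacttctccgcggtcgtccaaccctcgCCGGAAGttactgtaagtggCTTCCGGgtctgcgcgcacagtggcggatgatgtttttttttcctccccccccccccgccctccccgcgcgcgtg
COX17: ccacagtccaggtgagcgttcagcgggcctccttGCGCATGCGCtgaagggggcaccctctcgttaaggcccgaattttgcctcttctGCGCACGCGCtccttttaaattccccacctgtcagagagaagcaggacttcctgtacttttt
COX5B: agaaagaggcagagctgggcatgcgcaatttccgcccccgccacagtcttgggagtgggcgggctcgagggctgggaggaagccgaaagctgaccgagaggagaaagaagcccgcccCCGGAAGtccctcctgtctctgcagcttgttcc
ATP5ME: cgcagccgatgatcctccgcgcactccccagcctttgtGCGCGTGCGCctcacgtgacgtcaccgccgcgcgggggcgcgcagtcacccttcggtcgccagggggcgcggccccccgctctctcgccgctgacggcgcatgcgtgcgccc
ATP5PD: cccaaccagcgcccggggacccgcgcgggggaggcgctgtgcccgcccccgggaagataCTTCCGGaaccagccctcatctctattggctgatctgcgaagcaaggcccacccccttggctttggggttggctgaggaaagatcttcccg
The capitals mark NRF1 letters in COX17, with 2 matches, and in ATP5ME, and ETS letters in the other 4 windows, with 2 matches in UQCR11. NRF1 letters also stand in the promoters of UQCRFS1, UQCR11, UQCRC1, ATP5PO, ATP5F1C and UQCR10. Their differences were -0.83, -0.47, -0.34, -0.20, -0.19 and -0.15.

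Other genes of the pathway were read from lists of their own. Of 29 further assembly factors of complexes III to V, 15 were tested, 10 lay below and 2 above the control in both libraries labelled shBCAT1, and limma called 0 at an adjusted p of 0.05 (5 below the control and 0 above it had an unadjusted p under 0.05). Of all genes tested, 43.7% were lower in both and 5.01% were lower at that p, and the part of transcript length in this list was not tested. COA6, which acts with SCO1 and SCO2 in copper delivery to the oxidase, was at 4.42 and 2.66 FPKM, against 8.07 FPKM in the control. HIGD2A, an assembly factor of supercomplexes, was at 5.84 and 7.02 FPKM, against 12.4 FPKM, and UQCC3, which acts in complex III assembly, at 2.81 and 2.90 FPKM, against 4.80 FPKM. For HIGD2A and UQCC3 both libraries had bounds below the control's, while those of COA6 in shBCAT1 1 met them. Of 4 copper supply genes 3 were tested, with 2 lower and 0 higher in both and a median difference of -0.29. Among them ATOX1, a cytosolic copper chaperone, was at 12.6 and 8.73 FPKM, against 17.6 FPKM. ATP5MK, a small membrane subunit of the synthase, was at 20.7 and 21.5 FPKM, against 29.2 FPKM. The isoform genes COX4I2, COX6A2, COX7B2 and COX8C, of which COX4I2 encodes the lung form of subunit IV, were listed at 0 in every library.

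Complex II, which takes electrons from succinate and pumps no protons, had 5 tested genes of 8, with 2 lower and 1 higher in both libraries labelled shBCAT1 and a median difference of -0.11. For this and the next lists, the shares over all genes tested were 43.7% lower and 25.6% higher in both. SDHA, its flavoprotein, was at 3.15 and 3.96 FPKM, against 3.89 FPKM in the control. Of 11 regulators 4 were tested, with 2 below the control and 2 above it in both and a median difference of 0.08. PPRC1, a coactivator related to PGC-1alpha, was at 1.34 and 1.46 FPKM, against 0.959 FPKM. POLRMT, the mitochondrial RNA polymerase, was at 2.46 and 2.95 FPKM, against 2.20 FPKM. YY1 was at 1.29 and 1.53 FPKM, against 1.62 FPKM, on the lower side unlike the other two. The ADP and ATP carrier SLC25A5 was at 20.9 and 20.6 FPKM, against 24.3 FPKM. Its relative SLC25A6 was at 21.1 and 21.6 FPKM, against 26.9 FPKM. Both were lower in each library labelled shBCAT1. Of the 6 genes of ADP and ATP exchange 5 were tested, with 3 lower and 1 higher in both and a median difference of -0.22. In these lists, too, limma called 0 genes at an adjusted p of 0.05 and 0 at an unadjusted p under 0.05.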

How the data were processed

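MTAC-P mRNA was sequenced for 2 libraries labelled shBCAT1 and 1 control, grouped by the knockdown label and the title. The deposited values are FPKM per RefSeq transcript and locus with lower and upper confidence bounds, per the file headers. Per the submitters' processing notes, Trim Galore, TopHat and Cufflinks were run with hg38. The sources used here do not give versions, settings, annotation or strand. FPKM divides by length and total but does not remove a trend of measured values with length, and reads of pseudogene copies may be split between entries.

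Each table held 56882 entries. A RefSeq gene table named 49281 of 50337 accessions and GENCODE release 29 another 625, with older names brought to current ones, and 431 stayed unnamed. FPKM was summed per symbol, bounds were added as a root sum of squares, and 326 genes were left out whose status was not OK somewhere. The square of value over SD, with 2 SDs from value to upper bound, was read as fragments, and for the genes with 1 entry 87.0% of the 69 values of tested members were whole within 0.05. Entries of 1 gene were taken as independent, so bounds and fragment numbers of genes with several entries are less certain. ATP5MC1 in the control had 2.60 fragments by this measure. Read totals are unknown. Transcript length is the exon length of the matched GENCODE transcript inside the deposited locus, weighted by FPKM over the transcripts that had a length. Coordinates are those of the deposited loci, counted from 1.

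Values at a mean of 1 FPKM or more entered limma 3.58.1 under R 4.3.3 as log2(FPKM + 1), unscaled, with a trend on intensity, and p-values were adjusted after Benjamini and Hochberg over 3869 genes. The fit had 1 residual and 3.02 prior degrees of freedom. Every limma p is two-sided. Low genes have smaller differences on this scale than in FPKM. Plots were drawn with matplotlib 3.10.9 under Python 3.11.15, and tables were handled in pandas 2.3.3 and numpy 2.4.6. The genes and lists were chosen with earlier results of these data known. All of the list with a mean of at least 1 FPKM are named, the others with levels only. Markers and promoters are descriptions. Of further pathway genes, at most 3 per list are named by the largest common difference, and SDHA, ATP5MK, UQCRHL, the isoforms listed at 0 and the transcript examples were chosen after their values were seen.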

Additional observations from a re-analysis of the deposited data

How the results depend on the processing

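Of the 43 tested genes, 0 passed at an adjusted p of 0.05 in any fit run, and 1 residual degree of freedom and a single control limit what could pass. The median difference of -0.37 was -0.31 with median-of-ratios scaling, -0.25 with quantile normalization, -0.51 and -0.26 with pseudocounts of 0.1 and 5, -0.36 with no filter on level, -0.44 at a minimum mean of 5 FPKM (29 genes), -0.44 with the most abundant transcript per gene (42 genes), -0.21 with the length trend removed and between -0.41 and -0.40 when a library labelled shBCAT1 was left out. The count lower in both libraries, 40, was 24 with the length trend removed and 28 with quantile normalization, beside 35.2% and 32.2% of all genes. Without loci under 300 bases, the median difference stayed at -0.37 and the count at 40, beside 43.5% of all genes. The count with bounds apart, 10, was 2 with bounds 1.5 times as wide and 5 with median-of-ratios scaling.

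Signs turned for some genes. With the length trend removed, differences were UQCRH 0.11, UQCR10 0.15, CYC1 0.070, COX4I1 0.16, ATP5PD 0.13, ATP5PO 0.11, ATP5MC1 0.26, ATP5MF 0.0034 and ATP5IF1 0.069. With quantile normalization they were UQCRH 0.14, UQCR10 0.086, CYC1 0.14, COX4I1 0.063, ATP5F1A 0.048, ATP5F1B 0.066 and ATP5MC1 0.016, and with the most abundant transcript ATP5F1A was 0.52. With 1 library labelled shBCAT1 left out, CYC1 ran from -0.36 to 0.17, ATP5PO ran from -0.52 to 0.12, and UQCRC2 from -0.077 to 0.24. The cause was not tested. No paired analysis was possible because the control has 1 library and its label carries no number. Values by leaving out a library have no test.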
